A study of Homo sapiens with 8 samples.

Results

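The 8 genes described here encode antigens used to target or diagnose prostate cancer, and their transcripts were measured in LNCaP cells exposed to recombinant asporin (ASPN). They are FOLH1, STEAP1, STEAP2, SLC45A3, TRPM8 and CD276, which encode proteins of cell membranes, and AMACR and ACP3, which encode enzymes read out in tissue or serum. They were chosen by gene symbol from the 36474 genes listed, and all 8 passed the low-count filter that left 21071 genes for testing. LNCaP is an established line from a lymph node metastasis of prostate carcinoma. The cells were held in serum-free, calcium-free medium before exposure to ASPN, a proteoglycan secreted by stromal cells. RNA was taken at 0 h (2 libraries), or after 12 h (3 libraries) or 24 h (3 libraries) with ASPN at 100 ng/mL, to find the transcripts whose abundance changed with time. Libraries of cells kept in this medium without ASPN were not analysed here, so ASPN and time in the medium cannot be told apart. Both comparisons with 0 h use the same 2 libraries of 0 h, 1 of which carries a replicate number that matches no label and is called here the unnumbered library.

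Tumor antigens of this kind are proteins whose expression is largely restricted to, or much higher in, a given tissue or its cancers, which lets antibodies, radioligands, vaccines or engineered T cells find the cells that carry them. Many prostate antigens mark luminal epithelial cells, and several of the corresponding genes respond to androgens. The protein at the cell surface also depends on translation and trafficking, which RNA counts do not measure.

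The cells carried the luminal program in each library. The luminal genes KLK3, KLK2, HOXB13, KRT8, KRT18 and TMPRSS2 each held at least 3516 counts in each library. By group means, KLK3, the gene of prostate-specific antigen, held 965, 1360 and 1190 CPM (the count of a gene divided by the library total, with TMM factors, on a common scale) at 0, 12 and 24 h, and TMPRSS2 held 45.3, 53.4 and 54.4 CPM. KLK2 held 174, 227 and 205 CPM and HOXB13 held 414, 473 and 479 CPM. Of the luminal keratins, KRT8 held 483, 514 and 526 CPM and KRT18 held 434, 422 and 392 CPM, so these markers did not all move in the same direction, and their part in the results was not tested. Basal markers summed to at most 0.248 CPM and immune markers to at most 0.248 CPM. Fibroblast markers summed to 21.2 to 23.8 CPM, most of it COL1A1. Endothelial markers summed to 14.8 to 17.3 CPM at 0 h, 13.5 to 15.2 at 12 h and 11.2 to 13.3 at 24 h, most of it VWF, while the defining genes PECAM1 and CDH5 held at most 5 counts in a library. Neuroendocrine markers summed to 2.8 to 2.86 CPM at 0 h, 2.59 to 2.78 at 12 h and 1.79 to 2.46 at 24 h, most of it SYP. Libraries held 73406825 to 96962135 counts, and the members held 411 to 191935 counts in a library. In bulk RNA, fewer expressing cells and less RNA per cell cannot be told apart.

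The antigen transcripts differed widely in level. Compared per kilobase of exon sequence, FOLH1 was highest at 342.3 ± 24.9 CPM per kb (mean ± SD over the 8 libraries), followed by STEAP1 at 198.0 ± 14.4, STEAP2 at 107.4 ± 9.502, SLC45A3 at 49.45 ± 5.078, CD276 at 23.02 ± 0.971 and ACP3 at 12.01 ± 1.233. The ranges over libraries of these 6 genes did not overlap, so their order was the same in each library. AMACR at 1.703 ± 0.2653 and TRPM8 at 1.321 ± 0.2281 CPM per kb were last, and their order depended on time. AMACR was below TRPM8 at 0 h (1.308 against 1.52), and above it at 12 h (1.756 against 1.428) and 24 h (1.914 against 1.082). With the longest transcript as the length, TRPM8 averaged 1.855 and AMACR 1.798, so these neighbours cannot be ordered. In addition, 72.3% of the exon bases of AMACR are shared with other genes on its strand. Its reads could be split or dropped in counting, so its level and last place may be too low.

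**Figure D1:**
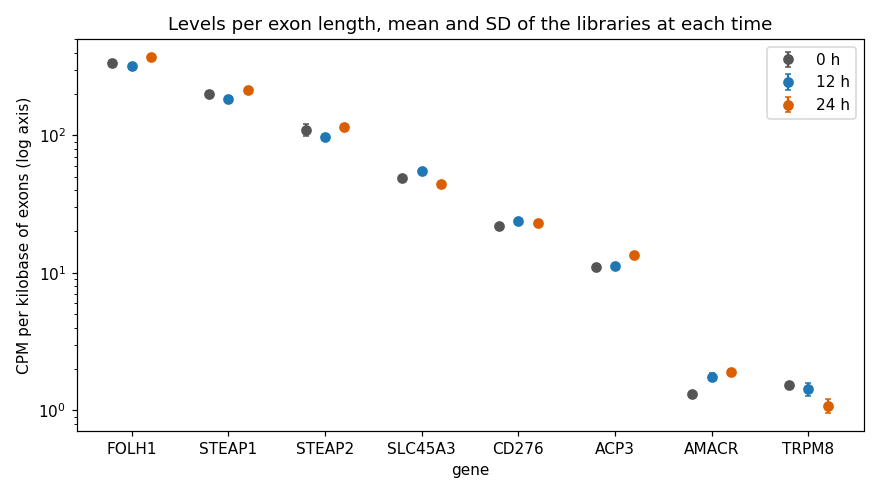
CPM per kilobase of exons (log axis) for the 8 antigen genes, as the mean and SD of the 2 libraries at 0 h and the 3 libraries each at 12 h and 24 h. FOLH1 averaged 342.3 CPM per kb and TRPM8 1.321, and only AMACR and TRPM8 changed places between time points. The level of AMACR may be too low, since 72.3% of its exon bases are shared with other genes.

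Time points were compared by edgeR's quasi-likelihood test, with p-values adjusted by Benjamini-Hochberg over the 21071 genes. At a threshold of 0.05, 3 of the 8 antigens passed between 12 h and 0 h (2 higher, 1 lower), where 11.6% of all genes tested passed (4.85% higher, 6.75% lower). Between 24 h and 0 h 5 passed (3 higher, 2 lower), against 16.3% of all genes (7.82% higher, 8.49% lower). Between 24 h and 12 h 6 passed (4 higher, 2 lower), against 2.72% of all genes (1.12% higher, 1.61% lower). The members are well-counted genes, and in a fit of the 13464 genes averaging 100 or more normalized counts the shares that passed were 19.5%, 26.2% and 4.92%. Each of the 8 except CD276 passed in at least 1 comparison.

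These changes were small. With the added requirement of a 1.5-fold change, 0 of the 8 genes were called in each comparison by edgeR and by DESeq2, against 1.05%, 2.45% and 0.18% of all genes for 12 h against 0 h, 24 h against 0 h and 24 h against 12 h by edgeR. At an unadjusted p of 0.05, 5, 5 and 6 of the 8 passed, against 23.5%, 27.3% and 13.6% of all genes. The largest change was 1.34-fold, 1.46-fold and 1.32-fold in turn. The members' median log2 fold change was -0.02, 0.08 and 0.17, where that of all genes was -0.000686, -0.00307 and 0.00345. The libraries of the compared times did not overlap for 5, 7 and 6 of the 8 genes, against 36.9%, 43.2% and 19.6% of all genes.

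**Figure D2:**
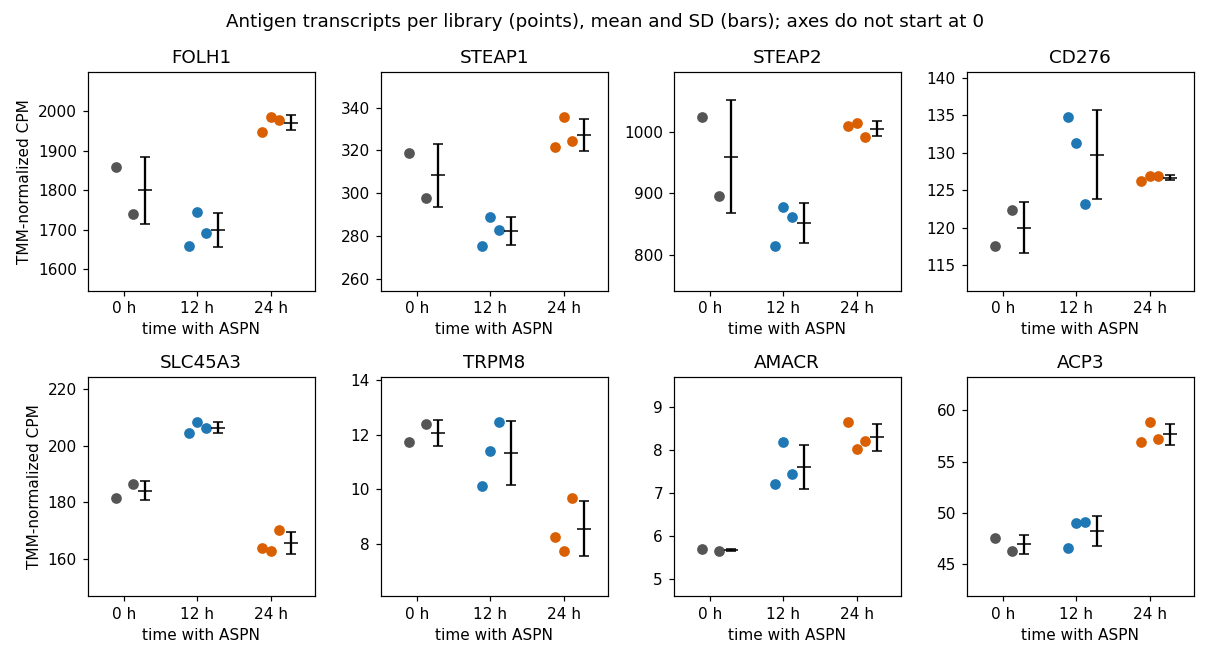
TMM-normalized CPM of each antigen gene in each library (points) with the mean and SD of each time (bars), on axes that do not start at 0. By their means, FOLH1, STEAP1 and STEAP2 were lowest at 12 h, SLC45A3 was highest at 12 h and lowest at 24 h, TRPM8 was lowest at 24 h, and AMACR was lowest at 0 h.

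FOLH1 (ENSG00000086205.18, GRCh38 chromosome 11, 49145092 to 49208638, minus strand) encodes prostate-specific membrane antigen, a surface glutamate carboxypeptidase that releases glutamate from folates and is the target of PSMA imaging and radioligands. Its libraries held 1859 and 1740 CPM at 0 h, 1660, 1745 and 1693 CPM at 12 h, and 1948, 1985 and 1978 CPM at 24 h. The 24 h libraries lay above all others, while those of 0 h and 12 h overlapped. FOLH1 rose between 12 h and 24 h by 0.21 on the log2 scale (SE 0.037, edgeR adjusted p = 0.000677) and between 0 h and 24 h by 0.13 (SE 0.041, edgeR adjusted p = 0.0255). At 12 h it differed from 0 h by -0.08 (SE 0.041, edgeR adjusted p = 0.219). It took 0.178%, 0.171% and 0.197% of the counts at 0, 12 and 24 h. The call between 24 h and 0 h was lost without the unnumbered library of 0 h (log2 change 0.09, edgeR adjusted p = 0.225) and without 24 h replicate 1, 2 or 3 (adjusted p = 0.0632, 0.093 and 0.0911). FOLH1B, a pseudogene whose transcript aligns to 51.9% of the longest FOLH1 transcript at 98.7% identity, held 2193 counts over the 8 libraries, where FOLH1 held 1236200.

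STEAP1 and STEAP2 encode six-transmembrane epithelial antigens of the prostate, of which STEAP2 is a metalloreductase of iron and copper and STEAP1 is a target of T-cell engagers and antibody-drug conjugates. They lie in the same direction on chromosome 7, STEAP1 (ENSG00000164647.9) at 90154456 to 90164829 and STEAP2 (ENSG00000157214.14) at 90167590 to 90238137 on the plus strand, 2760 bases apart with 0 listed genes between them. The STEAP1 libraries held 318.8 and 298.0 CPM at 0 h, 275.5, 288.7 and 282.7 CPM at 12 h, and 321.7, 335.7 and 324.2 CPM at 24 h. The STEAP2 libraries held 1025 and 895.6 CPM at 0 h, 814.9, 877.2 and 862.1 CPM at 12 h, and 1010, 1015 and 992.6 CPM at 24 h. For both genes the 12 h libraries were below all others. The 24 h libraries were above both 0 h libraries for STEAP1, but lay between them for STEAP2.

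Both genes rose between 12 h and 24 h, STEAP1 by 0.21 (SE 0.039, edgeR adjusted p = 0.00153) and STEAP2 by 0.24 (SE 0.042, edgeR adjusted p = 0.000875) on the log2 scale. Between 0 h and 12 h STEAP2 fell by 0.17 (SE 0.047, edgeR adjusted p = 0.0126), and the change of STEAP1 was -0.13 (SE 0.044, edgeR adjusted p = 0.0553). Between 0 h and 24 h the change was 0.09 for STEAP1 (SE 0.044, adjusted p = 0.214) and 0.07 for STEAP2 (SE 0.047, adjusted p = 0.402) by edgeR. The comparisons of STEAP2 with 0 h turned on which library of 0 h was kept. In a fit of 0 h and 12 h alone the fall of STEAP2 did not pass (edgeR adjusted p = 0.0571). Without 0 h replicate 1 the change to 12 h was -0.07 (edgeR adjusted p = 0.565) and that to 24 h was 0.16 (edgeR adjusted p = 0.0434), and without the unnumbered library the change to 24 h was -0.02 (edgeR adjusted p = 0.839). STEAP1 passed between 12 h and 0 h without the unnumbered library (edgeR adjusted p = 0.0258), without 12 h replicate 2 (0.0336) and with DESeq2 (0.0271). STEAP1B aligns to 71.2% of the longest STEAP1 transcript at 97.7% identity and held 194 counts in all, where STEAP1 held 206971.

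Of the 8 antigen genes, 7 have an entry among RefSeq promoters of GRCh38.p14, given as the 250 bases before a transcription start. TRPM8, STEAP2 and CD276 have more than 1 entry, which makes 14 in all. The first entries of the 5 genes that changed between 12 h and 24 h and have one are printed to show the sequence beside which opposite changes were measured, 3 from genes that rose and 2 from genes that fell. Each reads 5′ to 3′ on the gene's strand, with capitals marking motifs found on either strand. The GC box was searched as GGGCGG. The TATA box was searched with the letters TATAAA, and the CCAAT box by the letters of its name. STEAP1 (chr7:90154219-90154468), STEAP2 (chr7:90211490-90211739) and ACP3 (chr3:132317157-132317406) rose, and SLC45A3 (chr1:205680510-205680759, minus strand) and TRPM8 (chr2:233917123-233917372) fell.
STEAP1: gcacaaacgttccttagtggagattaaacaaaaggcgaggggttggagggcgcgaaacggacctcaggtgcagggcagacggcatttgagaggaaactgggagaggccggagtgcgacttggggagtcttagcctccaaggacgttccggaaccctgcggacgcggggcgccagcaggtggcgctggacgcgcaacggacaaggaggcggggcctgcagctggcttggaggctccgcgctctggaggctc
STEAP2: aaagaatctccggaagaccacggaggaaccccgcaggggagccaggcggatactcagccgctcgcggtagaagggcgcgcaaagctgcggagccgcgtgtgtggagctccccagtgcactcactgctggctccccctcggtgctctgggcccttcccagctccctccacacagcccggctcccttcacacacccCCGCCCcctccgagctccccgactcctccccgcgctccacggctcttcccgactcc
ACP3: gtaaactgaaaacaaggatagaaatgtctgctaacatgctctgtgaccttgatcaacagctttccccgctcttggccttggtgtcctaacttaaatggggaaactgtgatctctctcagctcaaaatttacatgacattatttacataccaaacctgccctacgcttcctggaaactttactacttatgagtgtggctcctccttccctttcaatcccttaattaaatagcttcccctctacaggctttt
SLC45A3: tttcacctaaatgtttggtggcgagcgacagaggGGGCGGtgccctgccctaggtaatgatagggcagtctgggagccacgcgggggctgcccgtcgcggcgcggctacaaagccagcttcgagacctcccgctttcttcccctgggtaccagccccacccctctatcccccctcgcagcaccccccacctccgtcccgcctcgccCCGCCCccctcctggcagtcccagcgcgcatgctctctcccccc
TRPM8: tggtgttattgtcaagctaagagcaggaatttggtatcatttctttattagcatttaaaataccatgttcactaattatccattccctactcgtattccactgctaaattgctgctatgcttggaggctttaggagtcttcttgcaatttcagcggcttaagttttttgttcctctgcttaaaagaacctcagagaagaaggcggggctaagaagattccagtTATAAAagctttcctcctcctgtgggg

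These stretches differed in base composition within each direction of change. GC content was 64.4% for STEAP1, 69.6% for STEAP2 and 42.0% for ACP3, and 69.2% for SLC45A3 and 40.0% for TRPM8. Among the first entries of the 7 genes, a GC box was present in 3, STEAP2 and SLC45A3 among them, where 42.6% of the 35116 promoters in the table hold it. A TATA box was in 1 first entry (TRPM8), against 10.7% of promoters, and a CCAAT box in 2 (AMACR and CD276), against 32.0%. The core hexamer of the androgen response element, AGAACA, was on either strand in 0 of the 7 first entries and in 12.4% of all promoters, which says only that these letters are not in these windows. Over all 14 entries, 3 of the 7 genes had a GC box, 2 a TATA box (TRPM8 and STEAP2), 4 a CCAAT box (AMACR, CD276, STEAP2 and TRPM8) and 1 the hexamer (TRPM8). The RefSeq start used for STEAP2 lies inside the gene as the deposited annotation bounds it.

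**Figure D3:**
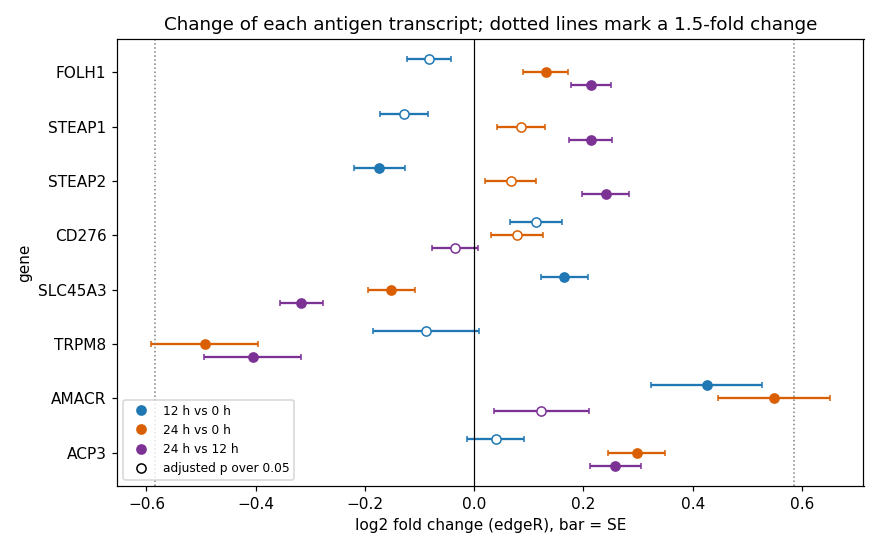
Log2 fold change of each antigen gene (points, edgeR) with its standard error (bars) for 12 h against 0 h, 24 h against 0 h and 24 h against 12 h. Open points did not pass an adjusted p of 0.05, and each estimate lies inside the dotted lines at a 1.5-fold change, the farthest being AMACR at 0.55 and TRPM8 at -0.49.

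SLC45A3 (ENSG00000158715.6, chromosome 1, 205657851 to 205680509, minus strand) encodes prostein, a membrane transporter of prostate epithelium whose androgen-driven gene is a fusion partner of ETS genes in prostate cancer. Its libraries held 181.7 and 186.4 CPM at 0 h, 204.6, 208.3 and 206.2 CPM at 12 h, and 163.8, 162.9 and 170.3 CPM at 24 h. The libraries of the 3 times formed 3 separate ranges, with 12 h highest and 24 h lowest. SLC45A3 rose by 0.17 between 0 h and 12 h (SE 0.044, edgeR adjusted p = 0.0108) and then fell by 0.32 between 12 h and 24 h (SE 0.039, edgeR adjusted p = 5e-06), a change that ranked 16 by p among the 21071 genes. At 24 h it was below 0 h by a log2 change of -0.15 (SE 0.044, edgeR adjusted p = 0.014). The fall from 12 h passed under each alternative run. The rise was lost without 0 h replicate 1 (edgeR adjusted p = 0.142) and in a fit of 0 h and 12 h alone (0.0505), and the difference between 24 h and 0 h without the unnumbered library (0.0899), 24 h replicate 1 (0.0694) or 24 h replicate 2 (0.0809).

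TRPM8 (ENSG00000144481.17, chromosome 2, 233917373 to 234019522, plus strand) encodes a calcium-permeable channel opened by cold and menthol that is abundant in prostate epithelium. Its libraries held 11.71 and 12.39 CPM at 0 h, 10.12, 11.4 and 12.45 CPM at 12 h, and 8.264, 7.765 and 9.707 CPM at 24 h. The 24 h libraries lay below all others, and those of 0 h and 12 h overlapped. TRPM8 fell by 0.49 on the log2 scale between 0 h and 24 h (SE 0.098, edgeR adjusted p = 0.000404) and by 0.41 between 12 h and 24 h (SE 0.088, edgeR adjusted p = 0.00716). Between 0 h and 12 h the change was -0.09 (SE 0.097, edgeR adjusted p = 0.654). The change from 12 h to 24 h did not pass without 12 h replicate 3 (edgeR adjusted p = 0.0879), 24 h replicate 1 (0.0625) or 24 h replicate 2 (0.0888), whereas that from 0 h passed without each library. Summed endothelial markers, nearly all VWF, and summed neuroendocrine markers, mostly SYP, were also lowest at 24 h, as given above, and their part in the result was not tested.

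ACP3 (ENSG00000014257.16, chromosome 3, 132317369 to 132368298, plus strand) encodes prostatic acid phosphatase, an androgen-regulated secreted and membrane enzyme once used as the serum test for prostate cancer and the antigen of the vaccine sipuleucel-T. Its libraries held 47.56 and 46.28 CPM at 0 h, 46.56, 49.01 and 49.06 CPM at 12 h, and 56.93, 58.86 and 57.18 CPM at 24 h. The 24 h libraries lay above all others, and those of 0 h and 12 h overlapped. ACP3 rose by 0.30 between 0 h and 24 h (SE 0.053, edgeR adjusted p = 9.27e-05) and by 0.26 between 12 h and 24 h (SE 0.047, edgeR adjusted p = 0.00118). From 0 h to 12 h the difference was 0.04 (SE 0.053, edgeR adjusted p = 0.727). Both increases passed under each alternative run.

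AMACR (ENSG00000242110.8, chromosome 5, 33986165 to 34008104, minus strand) encodes alpha-methylacyl-CoA racemase, which prepares branched-chain fatty acids for oxidation in peroxisomes and is stained in prostate biopsies. Its libraries held 5.688 and 5.653 CPM at 0 h, 7.21, 8.189 and 7.444 CPM at 12 h, and 8.648, 8.034 and 8.21 CPM at 24 h. The 0 h libraries lay below all others, and those of 12 h and 24 h overlapped. AMACR rose by 0.43 between 0 h and 12 h (SE 0.10, edgeR adjusted p = 0.00476) and by 0.55 between 0 h and 24 h (SE 0.10, edgeR adjusted p = 0.000172), with a difference of 0.12 between 24 h and 12 h (SE 0.088, edgeR adjusted p = 0.593). Without 0 h replicate 1 the 12 h change was 0.43 with an adjusted p of 0.0747 by edgeR. Of its exon bases 72.3% are shared with other genes on the same strand, 61.4% with the readthrough gene C1QTNF3-AMACR, so its reads could be split or dropped in counting. C1QTNF3-AMACR held 385 counts in all and AMACR 5015.

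CD276 (ENSG00000103855.18, chromosome 15, 73683966 to 73714514, plus strand) encodes B7-H3, an immune checkpoint protein of the B7 family that is targeted by antibody-drug conjugates. Its libraries held 117.6 and 122.4 CPM at 0 h, 134.8, 131.3 and 123.2 CPM at 12 h, and 126.3, 126.9 and 126.9 CPM at 24 h. The 0 h libraries were below the others, and the 24 h libraries lay within the range of 12 h. The change was 0.11 between 0 h and 12 h (SE 0.047, edgeR adjusted p = 0.131), 0.08 between 0 h and 24 h (SE 0.047, edgeR adjusted p = 0.305) and -0.03 between 12 h and 24 h (SE 0.042, edgeR adjusted p = 0.798). The 95% intervals, not adjusted, ran from 0.02 to 0.21 for 12 h against 0 h and from -0.12 to 0.05 for 24 h against 12 h.

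Ratios of counts within a library do not depend on library scaling. The STEAP1 count was 31.11% and 33.28% of the STEAP2 count at 0 h, 32.78% to 33.81% at 12 h and 31.85% to 33.08% at 24 h, so the ranges of all 3 times overlapped. FOLH1 as a percentage of STEAP2 was 181.4% and 194.3% at 0 h, 196.4% to 203.7% at 12 h and 192.8% to 199.3% at 24 h, with 12 h above 0 h and 24 h overlapping both. In contrast, SLC45A3 was 9.773% and 10.71% of FOLH1 at 0 h, 11.93% to 12.33% at 12 h and 8.211% to 8.61% at 24 h, which left 3 separate ranges. TRPM8 was 24.61% and 26.78% of ACP3 at 0 h, 21.73% to 25.37% at 12 h and 13.19% to 16.98% at 24 h, with the 24 h libraries below all others. ACP3 was 2.558% and 2.66% of FOLH1 at 0 h, 2.805% to 2.897% at 12 h and 2.89% to 2.966% at 24 h, with 0 h below the other times. These ratios are given as descriptions of the libraries, with no test.

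**Figure D4:**
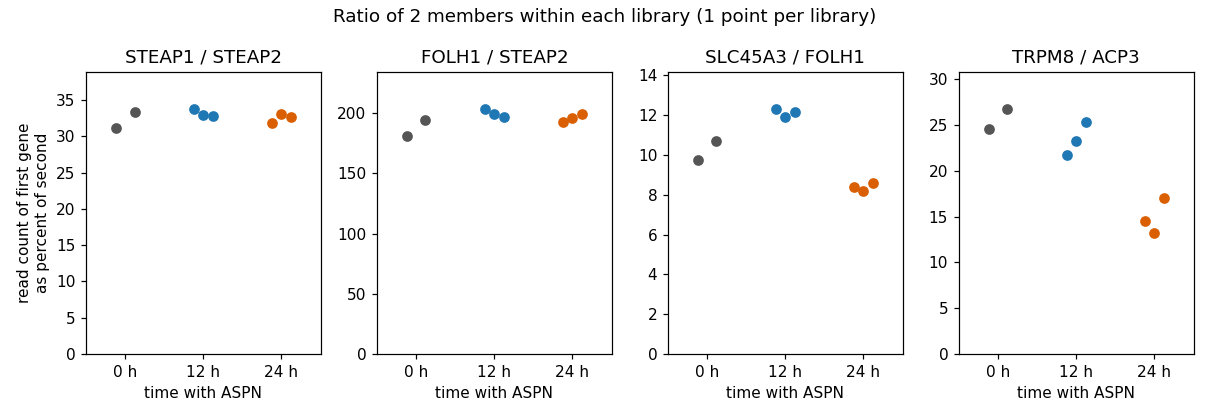
Read count of an antigen gene as a percentage of that of another in the same library, with 1 point per library and axes from 0. STEAP1 stayed between 31.11% and 33.81% of STEAP2, while SLC45A3 went from at least 11.93% of FOLH1 at 12 h to at most 8.61% at 24 h.

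For the 4 members with the smallest p, the genes with the most similar time course were found among 12534 genes, as the smallest root mean square difference of log2 CPM centred over the 8 libraries. FOLH1 was nearest to STEAP1 (0.0232), another member, and to FNBP1L (0.0279), where the SD of FOLH1 itself was 0.098. STEAP2 was nearest to ADGRG6 (0.0212), an adhesion G protein-coupled receptor with 342, 305.9 and 358.4 CPM at 0, 12 and 24 h, and to the kinase gene JAK2 (0.0251). ACP3 was nearest to RHOB (0.022), a small GTPase with 107, 107.3 and 126.9 CPM, and to MAOA (0.0272), a monoamine oxidase with 288.4, 295.4 and 348.1 CPM. SLC45A3 was nearest to AURKB (0.0303), a mitotic kinase with 15.74, 17.7 and 13.95 CPM, and to FAM83D (0.036), a spindle protein with 33.71, 37.89 and 31.9 CPM. These likenesses describe 8 shared libraries and carry no test.

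The relatives of the members were tested in the same fit, where 11.6%, 16.3% and 2.72% of all genes passed between 12 h and 0 h, 24 h and 0 h, and 24 h and 12 h. In the STEAP family, STEAP1 and STEAP2 were the 2 of 4 tested genes that rose between 12 h and 24 h, while STEAP3 and STEAP1B did not pass in any comparison and STEAP4 had too few counts to test. Of 6 TRPM channels tested, TRPM8 and TRPM4, a sodium-permeable channel activated by calcium, were the 2 that fell, both between 0 h and 24 h and between 12 h and 24 h. TRPM4 held 279.5 ± 4.21 CPM at 0 h (SD, n = 2), 255.9 ± 11.77 at 12 h and 226.2 ± 9.595 at 24 h (SD, n = 3), a log2 change of -0.31 from 0 h (SE 0.047, edgeR adjusted p = 1.1e-05). Its change from 12 h of -0.18 (SE 0.042, edgeR adjusted p = 0.0138) did not pass without 12 h replicate 3 (0.101), 24 h replicate 1 (0.161) or 24 h replicate 3 (0.0805). Of 6 acid phosphatases ACP3 was the 1 that passed, in both comparisons at 24 h. Of 4 SLC45 transporters, SLC45A3 passed in each comparison. SLC45A2, with 192 counts in all, was higher at 24 h than at 0 h (log2 change 1.45, SE 0.51, edgeR adjusted p = 0.047). SLC45A2 did not pass with no low-count filter (edgeR adjusted p = 0.0603) or without 12 h replicate 2 or 3 (0.0526 and 0.0504). Nor did it pass without 24 h replicate 1, 2 or 3 (0.0728, 0.0902 and 0.124) or without the unnumbered library (log2 change 0.97). Its log2 change was 2.26 without 0 h replicate 1. Of 6 B7 family genes, NCR3LG1, the ligand of the natural killer receptor NKp30, was the 1 that passed, at 12 h against 0 h (log2 change 0.27, SE 0.090, edgeR adjusted p = 0.0469). That call was lost in a fit of 0 h and 12 h alone (edgeR adjusted p = 0.0648). It was lost as well without 12 h replicate 2 (0.124), 12 h replicate 3 (0.138) or 24 h replicate 1 (0.0606). The same held without 0 h replicate 1 (log2 change 0.36) or the unnumbered library (0.20).

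The pathways and relatives of the enzymes were mixed. Of 5 tested genes listed as FOLH1 and its relatives, which include transferrin receptors, FOLH1 and the transferrin receptor gene TFRC rose between 0 h and 24 h. NAALADL2 fell between 0 h and 12 h (log2 change -0.21, SE 0.051, edgeR adjusted p = 0.00588). Of 7 genes of folate uptake and polyglutamation, 3 were higher and 0 lower at 24 h than at 0 h (7.82% and 8.49% of all genes), among them the reduced folate carrier SLC19A1, which went from 45.72 ± 6.13 CPM at 0 h to 56.15 ± 1.336 at 24 h (log2 change 0.30, SE 0.061, edgeR adjusted p = 0.00054). Of 14 genes listed for fatty acid oxidation in peroxisomes, not all particular to branched chains, 3 were higher, AMACR among them, and 2 lower at 24 h than at 0 h. The lower ones were HSD17B4, a later enzyme of the route of AMACR (304.1 ± 10.04 CPM at 0 h, 272.3 ± 0.4545 at 24 h), and EHHADH (13.36 ± 0.4361 and 10.49 ± 0.5018 CPM). Without 0 h replicate 1 the calls of NAALADL2 (edgeR adjusted p = 0.369, with a log2 change of -0.11), SLC19A1 (0.129, with a log2 change of 0.16), HSD17B4 (0.114) and EHHADH (0.0986) did not pass, nor did TFRC without the unnumbered library (0.078) or 24 h replicate 3 (0.0561). In the peroxisomal and folate lists 0 of the 14 and 7 genes passed between 24 h and 12 h by edgeR, where 2.72% of all genes passed.

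Some other antigens changed more than the members, whose largest log2 change was 0.55 (AMACR). Of the genes named here these were SLC7A11, FGFR1 and the low-count SPINK1, while ALCAM, FASN, GDF15 and HOXC6 changed less than AMACR. Of 26 other cell surface targets tested, 4 rose and 3 fell between 0 h and 12 h, 7 rose and 4 fell between 0 h and 24 h, and 0 rose and 1 fell between 12 h and 24 h, beside 4.85%, 7.82% and 1.12% of all genes that rose and 6.75%, 8.49% and 1.61% that fell. SLC7A11, the cystine and glutamate exchanger, fell from 677.1 ± 86.92 CPM at 0 h to 446.2 ± 31.31 at 12 h and 350.9 ± 12.51 at 24 h (log2 change from 0 h to 24 h -0.95, SE 0.062, edgeR adjusted p = 8.84e-10). ALCAM, a cell adhesion protein, fell from 157.6 ± 5.413 to 121.9 ± 4.162 CPM between 0 h and 12 h. The receptor gene FGFR1 rose from 6.581 ± 0.1832 CPM at 0 h to 10.74 ± 0.5816 at 24 h (log2 change 0.71, SE 0.093, edgeR adjusted p = 1.11e-06). Of 17 other diagnostic markers tested, 1 rose and 1 fell between 0 h and 12 h, 1 rose and 3 fell between 0 h and 24 h, and 3 fell between 12 h and 24 h, where in all 11.6%, 16.3% and 2.72% of genes passed. FASN, the fatty acid synthase, rose from 1229 ± 120.9 CPM at 0 h to 1743 ± 84.44 at 12 h and fell to 1365 ± 96.85 at 24 h, and GDF15, a stress-responsive cytokine, fell from 1977 ± 63.65 to 1509 ± 50.32 CPM between 0 h and 24 h. HOXC6, a homeobox gene of urine tests, was 0.23 higher at 24 h than at 0 h on the log2 scale (SE 0.074, edgeR adjusted p = 0.0285). SPINK1, named after its values were seen, held 54 counts in all. It fell from 0.1834 ± 0.09732 CPM at 12 h to 0.01531 ± 0.006002 at 24 h (log2 change -3.46, SE 0.95, edgeR adjusted p = 0.0394). SPINK1 did not pass with thinned counts (edgeR adjusted p = 0.0666) or without 12 h replicate 3 (0.0549). Nor did it pass without 24 h replicate 1, 2 or 3 (0.109, 0.178 and 0.147) or without the unnumbered library (log2 change -3.47). It was not tested in a fit of 12 h and 24 h alone, or without 12 h replicate 1 or 2. HOXC6 did not pass without 0 h replicate 1 (edgeR adjusted p = 0.301) or 24 h replicate 3 (0.216, with a log2 change of 0.15), and neither FASN (0.181) nor SLC7A11 (0.109) passed between 12 h and 24 h without 12 h replicate 1.

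**Figure D5:**
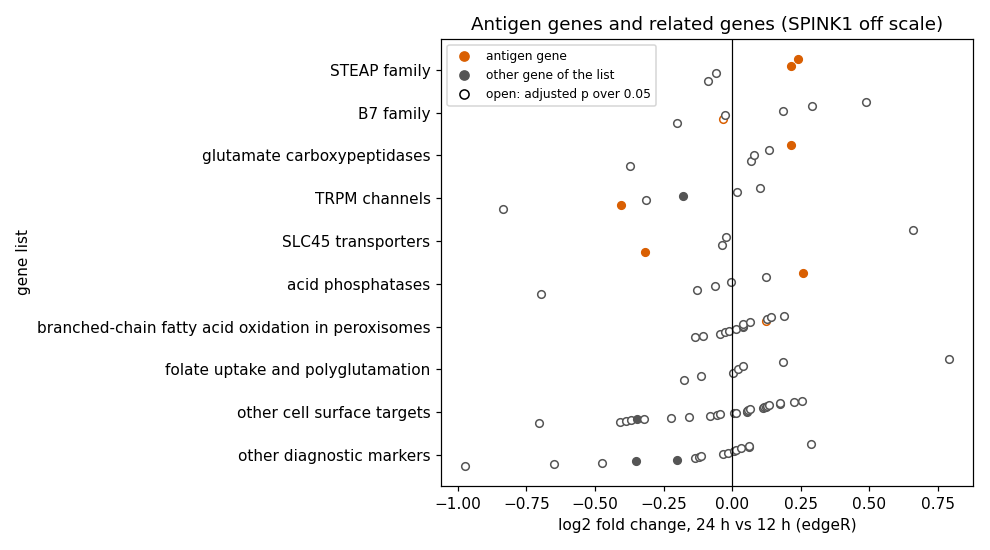
Log2 fold change between 24 h and 12 h (edgeR) of each tested gene in the lists related to the antigens, with antigen genes in orange, other genes in grey and open points for an adjusted p over 0.05. STEAP1 and STEAP2 lie right of 0, TRPM8 and SLC45A3 left of it, and SPINK1 is beyond the axis.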

How the data were processed

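RNA was measured in 8 libraries of LNCaP cells by paired-end sequencing. The values are raw counts of reads per gene as deposited by the authors. Per the study's methods, the authors trimmed reads with Cutadapt, aligned them to GRCh38 with STAR, counted them with featureCounts on GENCODE genes, and left out a time-0 library for quality. Strand and multi-mapping options are not given in the sources used here. Libraries were assigned by the time and replicate in the column names, and the second 0 h column carries a number that no 0 h label has. Replicates are labelled biological, while the study's methods describe cells plated as replicate wells in multiwell plates. Separate cultures are not described, so p-values measure the spread between these libraries and may not cover that between independent cultures.

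Counts were tested with edgeR 4.0.16 in R 4.3.3 (quasi-likelihood, robust, TMM, filterByExpr, 1 coefficient per time over all libraries). Calls used an adjusted p of 0.05 and a fold change of 1.5. The standard error was derived from the log2 fold change and F. Lengths came from GENCODE v44, whose coordinates matched those of the file for 7 of the 8 genes. Near-identical transcripts were found with blastn 2.17.0 (at least 150 aligned bases and 90% identity). A count of 0 allows up to 0.0309 to 0.0409 CPM (3 counts), which covers counting error only. Replicates differed beyond sampling noise (chi-square per degree of freedom 5.32 to 15.2). The procedure was tested on simulated counts.

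The members, lists and tests were chosen with earlier results of these data known. The rule for names took all 8 members, the gene with the smallest p in each direction from each related list, and the 2 nearest time courses of the 4 members with the smallest p. Alternatives were RLE and upper-quartile scaling, no count filter or a mean of 100 counts, DESeq2 1.42.0, fits of the compared times alone, thinned counts, a replicate block, and leaving out each library. The summed level of the luminal marker list is not reported here.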

Additional observations from a re-analysis of the deposited data

How the results depend on the processing

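Between 24 h and 12 h, 5 to 6 of the antigen genes passed when each library was left out, and 6 passed with the replicate number as a block, as without it. Same-numbered libraries of 12 h and 24 h deviated together with correlations of 0.115, 0.0263 and 0.0291. For 12 h replicates 1 and 3 the same-numbered library of 24 h was closest, whereas 12 h replicate 2 was closest to 24 h replicate 3 (0.0676). These correlations do not settle whether the numbers pair the libraries, and the main fit does not pair them. The block was fitted to the libraries of 12 h and 24 h alone, where 865 genes passed in all. Without a block that fit passed 663, and the main fit of all 8 libraries passed 574. No paired analysis was possible with 0 h because its columns share fewer than 2 labelled numbers with the other times. Between 12 h and 0 h, 1 of the antigen genes passed in a fit of those times alone, and leaving out each library gave 0 to 4, with 0 without 0 h replicate 1. Between 24 h and 0 h, leaving out each library gave 3 to 6, with 3 without the unnumbered 0 h library, 24 h replicate 1 or 24 h replicate 2. A fit that leaves 1 library at 0 h assumes that it varies like the other times. Leaving out each library gave 0 to 1 genes past the 1.5-fold requirement between 24 h and 0 h. That gene was TRPM8, which fell by a log2 change of -0.588 without 24 h replicate 3. AMACR reached at most 0.574 under the alternatives run, short of 1.5-fold. The change of STEAP2 between 24 h and 0 h ran from -0.0222 without the unnumbered library to 0.163 without 0 h replicate 1. No other change of the 8 genes reversed under the alternatives run. With the longest transcript as length, levels were 444.3 (FOLH1), 250.7 (STEAP1), 134.1 (STEAP2), 54.71 (SLC45A3), 38.29 (CD276), 16.2 (ACP3) and 1.855 (TRPM8) CPM per kb. The median of all genes moved by at most 0.0136 (log2) under another scaling. Over all genes, the count past the adjusted p between 12 h and 0 h was 624 without 0 h replicate 1 and 1687 with those times alone, against 2443, and between 24 h and 0 h it was 1597 without 0 h replicate 1, against 3437. Between 24 h and 12 h it was 222 to 273 without 12 h replicate 3 or any 24 h library.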
